A study of Mus musculus with 6 samples.

Results

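The hippocampus expresses one of the best studied lipid signalling systems of the brain, and this account follows the genes of that system. The 8 genes were taken by name from the 16060 rows of the deposited table, and each was found on 1 row. They are Cnr1, which encodes the CB1 cannabinoid receptor, Dagla and Daglb, which encode the diacylglycerol lipases that make 2-arachidonoylglycerol (2-AG), Mgll, Abhd6 and Abhd12, which encode hydrolases that break 2-AG down, Napepld, which encodes a phospholipase that releases anandamide from its membrane precursor, and Faah, which encodes the amide hydrolase that degrades anandamide. Hippocampal RNA came from adult male C57BL/6 mice with no genetic change named in the labels. The 3 mice labelled Control received intraperitoneal saline, and the 3 mice labelled MA received methamphetamine (MA), a psychostimulant, at doses that were raised weekly over 3 weeks. The animals were killed after behavioral tests that followed the last treatment week, and each library stands for 1 mouse.

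Endocannabinoids work backwards across the synapse. When a postsynaptic neuron is strongly activated, or when its Gq-coupled receptors are engaged, DAGLα forms 2-AG in the postsynaptic membrane, and 2-AG then acts on CB1 on the presynaptic terminal and lowers transmitter release. MAGL, the product of Mgll, ends much of this signal in terminals and astrocytes, ABHD6 acts on the postsynaptic side, and ABHD12 is best known as a lysophosphatidylserine lipase that can also hydrolyse 2-AG. In the hippocampus CB1 is dense on the terminals of cholecystokinin interneurons and sparser on glutamatergic terminals.

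Values are log2 of RPKM plus 1, where RPKM is a read count scaled to gene length and to the mapped reads of the library. The scale and the offset were read from the values. All 6 libraries share 1 highest value, and their values are distributed nearly alike, as after a quantile normalization. Because of this, 295 rows hold the same value in more than 1 library, among them Abhd12 and Napepld. All 8 genes passed the filter on low values, a back-transformed RPKM of at least 0.5 in at least 3 libraries, as did 13321 rows in all. The read depth of the libraries is unknown. The library labelled MA replicate 3 stood apart. Its mean Pearson correlation with the other libraries of its group was 0.978 across tested genes, against 0.984 to 0.993 for the other 5 libraries, and it was the only library with no gene at 0. Its deviations from the other MA libraries also ran against exonic length, with a Spearman's rho of -0.358 across 13302 genes, where the other libraries lay between -0.214 and 0.303. All 8 markers of hippocampal glutamatergic neurons were detected in every library.

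On GRCm38 with GENCODE M21 gene models, Cnr1 (ENSMUSG00000044288) lies on the plus strand at chr4:33924593-33948831, Dagla (ENSMUSG00000035735) on the minus strand at chr19:10245265-10304877 and Daglb (ENSMUSG00000039206) on the plus strand at chr5:143464584-143505942. Mgll (ENSMUSG00000033174) lies at chr6:88724412-88828360 and Abhd6 (ENSMUSG00000025277) at chr14:8002902-8056763, both on the plus strand. Abhd12 (ENSMUSG00000032046) at chr2:150832493-150904741, Napepld (ENSMUSG00000044968) at chr5:21662901-21701396 and Faah (ENSMUSG00000034171) at chr4:115967145-116017926 lie on the minus strand. The values count reads over whole genes, and the build behind them is not clear from the sources, so these positions only say where the genes are. The windows before the start sites are printed for 4 of the 8 genes. These are Mgll and Abhd6, whose MA libraries all lay below their control libraries, and Cnr1 and Faah, whose levels ran in opposite orders across the MA libraries. The sequences are RefSeq promoter entries on GRCm38.p6, matched by symbol for 6 of the 8 genes and cut to the 250 bases before the start site, with bases in an annotated exon of the gene removed. They lie at chr4:33924014-33924263 on the plus strand for Cnr1, chr4:116017927-116018174 on the minus strand for Faah, chr6:88724162-88724411 on the plus strand for Mgll and chr14:8002638-8002887 on the plus strand for Abhd6. Capitals mark a match to GGGCGG (the GC box bound by Sp1-type factors) or CACGTG (the E-box bound by clock and Myc-type factors) on either strand.
Cnr1: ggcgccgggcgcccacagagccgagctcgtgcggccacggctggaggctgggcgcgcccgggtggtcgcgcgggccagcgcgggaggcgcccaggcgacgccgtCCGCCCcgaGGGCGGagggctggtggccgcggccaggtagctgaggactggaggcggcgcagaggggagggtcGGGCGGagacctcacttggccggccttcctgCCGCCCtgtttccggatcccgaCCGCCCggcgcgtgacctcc
Faah: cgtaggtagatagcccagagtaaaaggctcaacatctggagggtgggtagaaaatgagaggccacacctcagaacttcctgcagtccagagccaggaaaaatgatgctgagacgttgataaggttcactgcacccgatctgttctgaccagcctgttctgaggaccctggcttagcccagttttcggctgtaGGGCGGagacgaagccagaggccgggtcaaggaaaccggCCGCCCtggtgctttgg
Mgll: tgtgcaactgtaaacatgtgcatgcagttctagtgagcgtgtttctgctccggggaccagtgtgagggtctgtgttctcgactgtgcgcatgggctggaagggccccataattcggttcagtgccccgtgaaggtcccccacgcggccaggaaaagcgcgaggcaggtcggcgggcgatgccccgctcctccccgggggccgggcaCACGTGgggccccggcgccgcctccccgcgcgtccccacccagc
Abhd6: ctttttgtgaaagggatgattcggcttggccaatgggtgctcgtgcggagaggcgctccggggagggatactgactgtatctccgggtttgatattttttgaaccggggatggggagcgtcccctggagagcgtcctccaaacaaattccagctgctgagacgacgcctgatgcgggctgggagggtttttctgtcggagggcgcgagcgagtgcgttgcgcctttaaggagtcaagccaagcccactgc

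The Cnr1 window held 5 GC boxes, with a GC content of 79.2%, and the Faah window held 2, with a GC content of 55.6%. A GC box was present in 32.7% of the 32851 RefSeq windows of the same kind. The Mgll window held 1 E-box, a motif present in 6.02% of windows. The Abhd6 window held none of the motifs searched. The cyclic AMP element TGACGTCA, its half-site TGACG, the EGR element GCGTGGGCG and the TATA box TATAAA had 0 matches in the 6 windows, Daglb and Napepld included. They were found in 1.55%, 17.8%, 0.536% and 12.4% of windows. The full cyclic AMP element contains the half-site, so their matches overlap. A match is a description of letters and does not show that a factor binds there.

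The level of the 8 genes in the hippocampus spanned a wide range. On the linear scale, as back-transformed RPKM, Abhd12 was highest at 141 ± 9.66 (SD, n = 6 libraries), which placed it above 95.7% of the tested genes. Mgll followed at 47.5 ± 3.05 and Faah at 39.4 ± 5.69 (SD, n = 6 each). The libraries of Abhd12 lay above all those of Mgll, whereas Mgll and Faah overlapped, with Mgll higher in 5 of the 6 libraries. The middle of the order was shared by Abhd6 at 24.7 ± 2.57, Dagla at 24.2 ± 2.71 and Cnr1 at 21.9 ± 3.04 RPKM (SD, n = 6 each). The ranges of these 3 neighbours overlapped, so their order was not larger than the spread between libraries. Napepld at 9.28 ± 0.975 and Daglb at 4.78 ± 0.377 (SD, n = 6 each) were the lowest, and the libraries of Cnr1, Napepld and Daglb did not overlap in that order. Even Daglb, the lower of the 2 diacylglycerol lipase genes, was above 34.7% of the tested genes. Daglb is the least certain of these levels, since 24.1% of its 9567 exonic bases in GENCODE M21 overlap Rac1 on the other strand and no source used here says that counting used strand. Of the Mgll exonic bases, 3.29% overlap the antisense gene Gm26588.

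**Figure D1:**
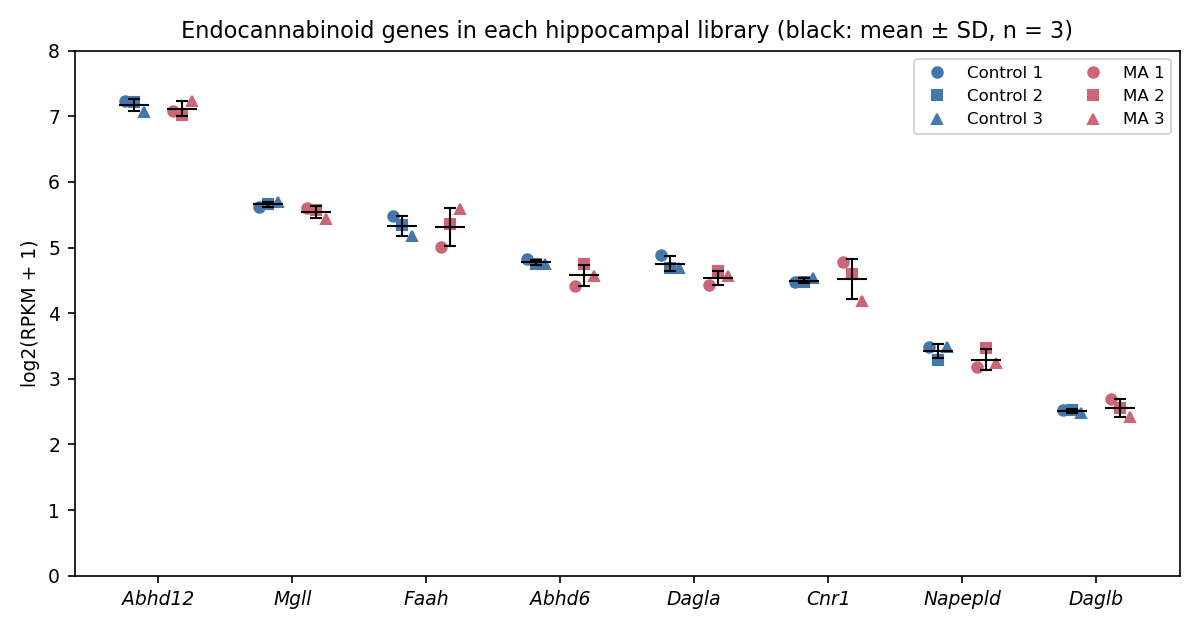
Level of each of the 8 genes in every library, as log2 of RPKM plus 1 on the vertical axis, with Control in blue and MA in red and symbols for replicates 1, 2 and 3. Black bars are the group mean ± SD (n = 3). Abhd12 is highest and Daglb lowest in all libraries, and the group means of each gene lie close together beside the distance between genes.

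The comparison of the MA with the control libraries asks whether repeated MA changed the transcripts of this system in the hippocampus. None of the 8 genes passed an adjusted p-value under 0.05 (limma, Benjamini-Hochberg over the 13321 tested genes), a threshold that 0.263% of all tested genes passed. At an unadjusted p-value under 0.05 the count was also 0 of 8, where 10.4% of all tested genes passed. Of the 8 log2 fold changes, 6 were below 0 and 2 above, from -0.21 for Dagla to 0.04 for Daglb, with a median of -0.093 beside -0.010 for all tested genes. In 3 of the 8 genes, Dagla, Mgll and Abhd6, the 3 MA libraries lay wholly below the 3 control libraries, and in none wholly above. Over all tested genes 10.2% lay wholly below and 7.32% wholly above, 17.5% together. These are counts over genes of 1 pathway and were not tested as a set. A p-value above the threshold does not show that the levels were equal, so the 95% interval of each fold is given below. In bulk tissue, fewer cells of a type and less RNA per cell cannot be told apart.

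CB1, the receptor, showed no shared shift and the largest excess of MA over control spread. On the log2 scale the Cnr1 values of Control replicates 1, 2 and 3 were 4.48, 4.47 and 4.54, and those of MA replicates 1, 2 and 3 were 4.78, 4.60 and 4.18. The control libraries lay within 0.070 of each other, while the MA libraries spanned 0.598, with 2 above the highest control library and 1 below the lowest. The group means were 4.50 ± 0.04 and 4.52 ± 0.31 (SD over 3 libraries), which put the log2 fold change at 0.02 (standard error, SE, 0.15, adjusted p = 0.977, limma). The 95% interval ran from a fold of 0.795 to 1.29 of the control level. The difference was thus smaller than the spread between the MA libraries, and the exact two-sided permutation test gave p = 0.9. Without MA replicate 3, the library that stood apart, the log2 fold change was 0.19 (limma adjusted p = 0.213). Leaving out MA replicate 1 gave -0.11 and without MA replicate 2 it was -0.020, so the direction depended on which library was left out. The SD of the MA libraries was 7.95 times that of the control libraries for this gene. A larger SD in MA than in control was seen in 7 of the 8 genes and in 71.1% of all tested genes, and 17.8% of tested genes had a larger SD in MA than Cnr1.

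Of the enzymes that make 2-AG, the gene of the main neuronal one was lower in each MA library. Dagla was 4.89, 4.68 and 4.69 in Control replicates 1, 2 and 3 and 4.43, 4.64 and 4.57 in MA replicates 1, 2 and 3, on the log2 scale. The groups did not overlap, but the lowest control library was only 0.0456 above the highest MA library. The log2 fold change was -0.21 (SE 0.099, adjusted p = 0.516, limma), a fold of 0.863 with a 95% interval from 0.735 to 1.01. Of all tested genes, 12.7% had a smaller p. Daglb, which is the diacylglycerol lipase gene with more of its known function in microglia and other non-neuronal cells, overlapped. Its values were 2.52, 2.53 and 2.47 in the control and 2.69, 2.55 and 2.42 in the MA libraries, in the order of replicates. The log2 fold change of 0.04 (SE 0.10, adjusted p = 0.925, limma) was within the spread of the MA libraries, with a 95% interval from a fold of 0.870 to 1.22. It was 0.11 without MA replicate 3 and -0.024 without MA replicate 1. The RPKM ratio of Dagla to Daglb was 6.06, 5.16 and 5.47 in the control and 3.76, 4.92 and 5.23 in the MA libraries. The ratio overlapped between the groups through MA replicate 3, and the difference of the means, -0.929, was -0.491 without MA replicate 1.

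The hydrolases of 2-AG each had a negative log2 fold change that did not pass the threshold. For Mgll, the gene of the main 2-AG hydrolase of the brain, the control libraries were at 5.61, 5.66 and 5.70 and the MA libraries at 5.60, 5.58 and 5.43. The groups were separated by 0.013 on the log2 scale. The log2 fold change was -0.12 (SE 0.081, adjusted p = 0.663, limma), or a fold of 0.918 with a 95% interval from 0.806 to 1.05, and without MA replicate 3 it was -0.070. Abhd6, whose product hydrolyses 2-AG in dendrites, was 4.82, 4.75 and 4.75 in the control and 4.42, 4.74 and 4.57 in the MA libraries. Here MA replicate 2 was only 0.00777 below the lowest control library, so the separation rested on a distance far smaller than the MA SD of 0.16. The log2 fold change was -0.20 (SE 0.10, adjusted p = 0.563, limma), a fold of 0.872 with a 95% interval from 0.741 to 1.03, and -0.12 without MA replicate 1. Abhd12 overlapped, at 7.24, 7.22 and 7.07 in the control and 7.07, 7.03 and 7.24 in the MA libraries. MA replicate 3 held the same deposited value as Control replicate 1. Its log2 fold change was -0.064 (SE 0.089, adjusted p = 0.863, limma), with a 95% interval from a fold of 0.828 to 1.11, and lay between -0.13 and -0.020 as each library was left out. For Dagla, Mgll and Abhd6 the exact two-sided permutation test gave p = 0.1, the smallest that 3 libraries against 3 allow. After a correction of each library for exonic length, which was chosen after the data were seen, Dagla and Mgll were wholly lower in MA and Abhd6 overlapped, with log2 fold changes of -0.20, -0.11 and -0.19.

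Mgll made up 22.6% ± 1.5 of the 3 hydrolase transcripts in the control group and 22.1% ± 2.2 in the MA group (SD, n = 3 for both), as a percentage of the summed RPKM of Mgll, Abhd6 and Abhd12. The RPKM ratio of Mgll to Dagla was 1.67, 2.01 and 2.05 in the control and 2.32, 1.96 and 1.86 in the MA libraries. Both measures overlapped between the groups, so the lower values of Dagla and Mgll left their ratio within the spread of the control libraries in 2 of the 3 MA libraries. Their directions were not stable: the difference of the Mgll share, -0.469 percentage points, was 0.785 without MA replicate 3 and 0.367 without Control replicate 3, and that of the Mgll to Dagla ratio, 0.133, was -0.0050 without MA replicate 1. The RPKM ratio of Abhd6 to Abhd12 was 0.184 ± 0.0097 and 0.168 ± 0.027 (SD, n = 3 each), and overlapped as well. Its difference of -0.016 was between -0.032 and -0.0075 with each library left out.

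The anandamide genes showed no separation of the groups. Napepld was 3.48, 3.29 and 3.48 in the control and 3.17, 3.47 and 3.24 in the MA libraries (log2 scale). With MA replicate 2 among the control values, the log2 fold change was -0.13 (SE 0.11, adjusted p = 0.754, limma), a fold of 0.916 with a 95% interval from 0.762 to 1.10. It was -0.067 without MA replicate 1 and -0.21 without MA replicate 2. Faah was 5.48, 5.34 and 5.17 in the control and 5.01, 5.35 and 5.58 in the MA libraries. MA replicate 1 was the lowest and MA replicate 3 the highest of all 6 libraries, so the MA group enclosed the control group. The log2 fold change of Faah was -0.018 (SE 0.16, adjusted p = 0.982, limma), with a 95% interval from a fold of 0.768 to 1.27, the widest interval of the 8 genes on the log2 scale. It was -0.15 without MA replicate 3, 0.14 without MA replicate 1, 0.056 without Control replicate 1 and -0.097 without Control replicate 3. The RPKM ratio of Faah to Napepld was 4.07 ± 0.55 in Control and 4.47 ± 0.95 in MA (SD, n = 3 for both), within the spread of both groups. The difference of 0.394 was -0.155 without MA replicate 3 and 0.080 without Control replicate 3.

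**Figure D2:**
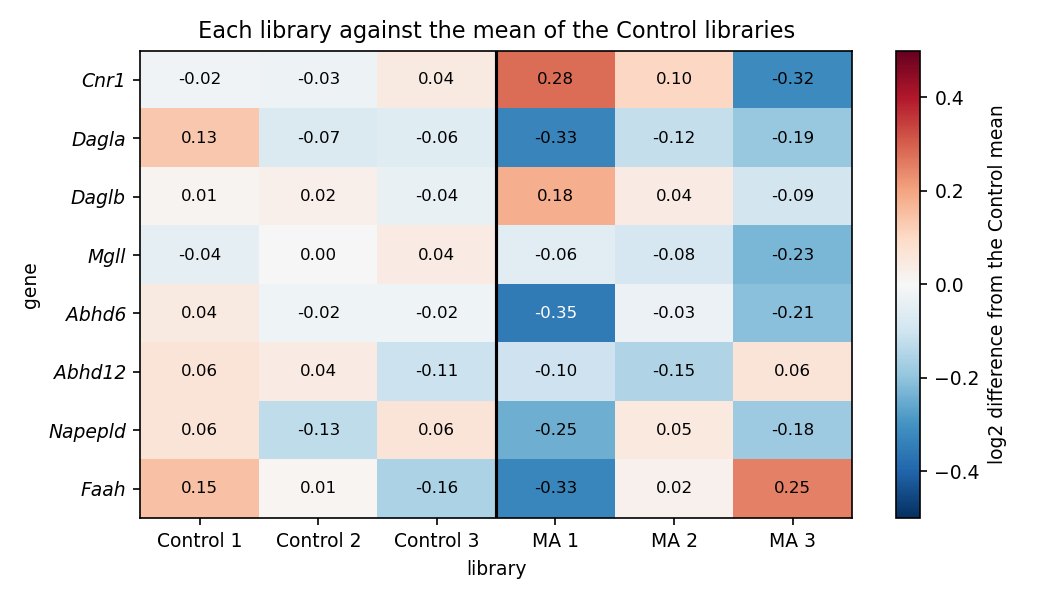
Difference of each library (columns) from the mean of the 3 Control libraries for the 8 genes (rows), on the log2 scale, with red above and blue below the control mean. MA replicate 1 was high in Cnr1 and low in Faah, Dagla and Abhd6, whereas MA replicate 3 was low in Cnr1 and high in Faah.

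The 8 genes did not move as 1 block within the MA group. In MA replicate 1, Cnr1 was 0.28 above the control mean and Faah, Dagla and Abhd6 were 0.33, 0.33 and 0.35 below it on the log2 scale. In MA replicate 3 the signs of Cnr1 and Faah were turned, at -0.32 and 0.25. Against the mean of the other MA libraries, Cnr1 in MA replicate 3 deviated by -0.51 and Faah by 0.40. The SD of this library's deviation over the 13321 tested genes was 0.385. In MA replicate 2 the 8 genes lay between -0.15 for Abhd12 and 0.10 for Cnr1 against the control mean. Over the 6 libraries Pearson's r with Cnr1 was 0.891 for Daglb and -0.873 for Faah, and between -0.721 and 0.598 for the other 5 genes, a description in which the points share the spread within the MA group. The exonic lengths of Cnr1, Daglb and Faah are 6444, 9567 and 7834 bases in GENCODE M21, and those of the other 5 genes lie between 2365 for Abhd6 and 5747 for Dagla. After the correction for exonic length the log2 fold changes of Cnr1 and Faah were 0.03 and -0.0057. The part of transcript length or RNA quality in the opposite deviations of single MA libraries was not tested.

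Among all tested genes, those whose pattern was most like Cnr1 over the 6 libraries were Eif5a2, Slc30a1 and Gfpt1, with Pearson's r of 0.997, 0.996 and 0.996 and Spearman's rho of 0.943, 1 and 1. The most opposite were Cep57l1, Thoc7 and Tmc4, with r of -0.996, -0.995 and -0.994 and rho of -0.943, -1 and -0.943. They are a description of 6 points picked from 13321 genes. Like Cnr1, Eif5a2, Slc30a1 and Gfpt1 had their highest value in MA replicate 1 and their lowest in MA replicate 3, so this likeness was carried by the spread within the MA group.

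**Figure D3:**
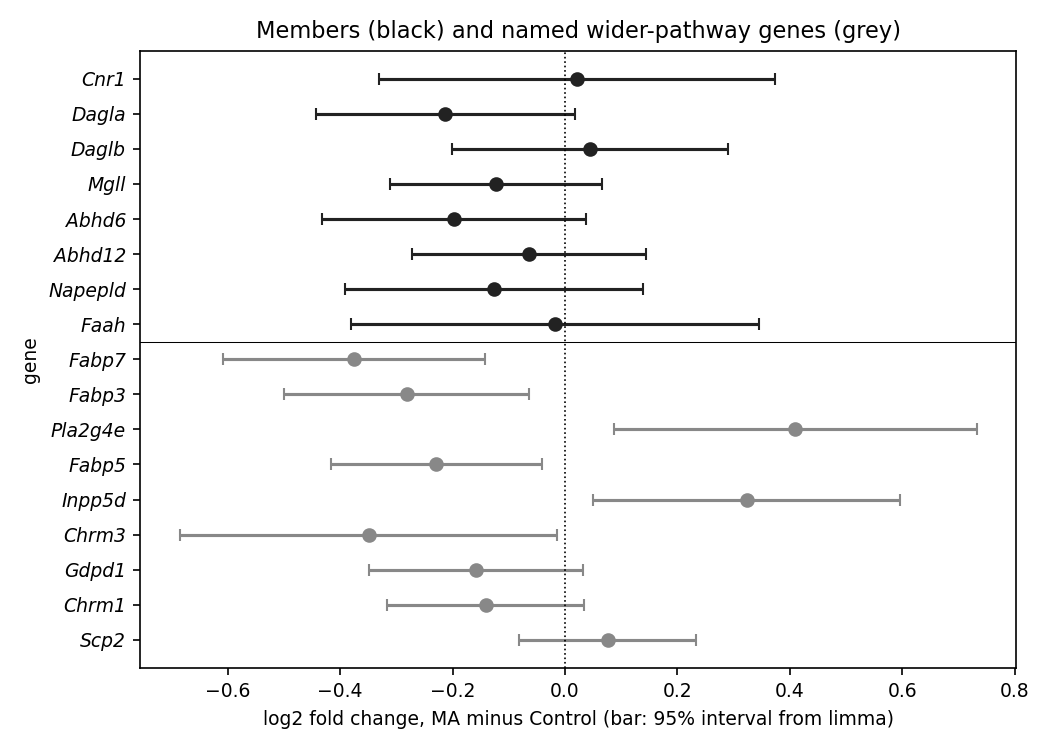
Log2 fold change of MA against Control with the 95% interval from limma, for the 8 genes (black) and the 9 named genes of the wider pathway (grey). The intervals of all 8 genes include 0, and the grey genes were named because of their p or their separation in this same comparison.

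The wider pathway was described from a list of receptors, partners and enzymes, of which 45 genes have a row and 39 passed the filter. None of the 39 passed the adjusted threshold (limma). At an unadjusted p-value under 0.05 there were 6, 2 higher and 4 lower in MA, which is 15.4% of the list beside 10.4% of all tested genes. The groups did not overlap in 8, 3 higher and 5 lower, a share of 20.5% that is near the 17.5% of all tested genes. The median log2 fold change of the 39 genes was -0.012, beside -0.010 for all tested genes, and ran from -0.066 without MA replicate 1 and -0.059 without MA replicate 2 to 0.053 without MA replicate 3. Of the 9 genes upstream of 2-AG synthesis, Gq-coupled receptors with their G proteins and phospholipases C, only Chrm3, a muscarinic receptor gene, had an unadjusted p under 0.05, at a log2 fold change of -0.35 (SE 0.14, adjusted p = 0.459, limma). Chrm1, the main muscarinic receptor gene of pyramidal cells, was wholly lower in MA, at -0.14 (SE 0.075, adjusted p = 0.580, limma). Grm5, the glutamate receptor gene best known for driving 2-AG release, had a log2 fold change of 0.019, within the spread. None of the 5 genes for CB1-binding proteins, the 4 Gi/o alpha subunit genes and the 8 genes of presynaptic effectors such as calcium and potassium channels had separate groups or an unadjusted p under 0.05.

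In the 4 genes of intracellular carriers the groups did not overlap, 3 lower and 1 higher in MA, where 10.2% of all tested genes were wholly lower and 7.32% wholly higher, and none of the 4 passed the adjusted threshold. Some fatty acid binding proteins carry anandamide through the cytosol to its hydrolase. Fabp7, mainly of astrocytes and neural progenitors, was 5.33, 5.20 and 5.42 in the control and 5.09, 4.89 and 4.86 in MA (log2 scale). Its log2 fold change was -0.37 (SE 0.099, adjusted p = 0.264, limma), the smallest p of the wider list. Fabp3, the heart-type carrier that neurons also express, and Fabp5 had log2 fold changes of -0.28 (SE 0.093, adjusted p = 0.362, limma) and -0.23 (SE 0.080, adjusted p = 0.390, limma). All MA libraries of the 3 genes were below all control libraries, yet none of the 3 passed the adjusted threshold. Scp2, a sterol carrier gene, was higher in each MA library by a small amount, 0.076 (SE 0.067, adjusted p = 0.751, limma). With limma's sample quality weights, Fabp3 and Fabp5 passed the adjusted threshold (limma adjusted p = 0.0270 and 0.0487), and Fabp3 passed it without MA replicate 3 (0.0403). Calls over all tested genes rose as well, from 35 to 586 with the weights and to 246 without MA replicate 3. The summed level of the 7 astrocyte markers was between 529 and 570 RPKM in the control and between 404 and 620 RPKM in the MA libraries. None of them was at 0 in any library. Their log2 fold changes had a median of -0.11 and ran from -0.36 for Aqp4 to -0.00012 for Slc1a3, with S100b at -0.0042. Only 1 of the 7, Aqp4, had an unadjusted p under 0.05 (limma). All 7 were below 0, as were 7025 of the 13321 tested genes. The part of the astrocyte markers in the values of Fabp7 was not tested.

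Among other enzymes of the anandamide route, Pla2g4e and Inpp5d were higher and Gdpd1 was lower in each MA library. Pla2g4e encodes an acyltransferase that makes the precursor of anandamide, and its log2 fold change was 0.41 (SE 0.14, adjusted p = 0.370, limma) at a low level of 0.92 in the control libraries. With a pseudocount of 0.1 or 0.01 in place of 1 it was 0.71 or 0.77, so the size of this change depended on the offset. Inpp5d, a phosphatase gene of microglia and other immune cells, was at 0.32 (SE 0.12, adjusted p = 0.410, limma), with a control level of 1.74. Its size depended on the offset too, at 0.43 or 0.44 with a pseudocount of 0.1 or 0.01. Gdpd1, a lysophospholipase D gene, was at -0.16 (SE 0.081, adjusted p = 0.568, limma). None of the 3 passed the adjusted threshold. Ptgs2, whose product oxidises 2-AG and which is also an activity-dependent gene, had a log2 fold change of -0.012 within the spread. The other cannabinoid-responsive receptors with a row fell under the filter. Cnr2, the CB2 receptor gene of immune cells, was between 0.015 and 0.089 in the control and between 0.109 and 0.146 in the MA libraries (log2 scale). Gpr55 was between 0.084 and 0.277 and Trpv1 between 0 and 0.289 in the 6 libraries, with overlapping groups. Ppara was between 0.298 and 0.373 in the control and between 0.486 and 0.761 in the MA libraries. The groups of Cnr2 and Ppara thus did not overlap, at levels under the filter and with no limma test (exact two-sided permutation p = 0.1 for both). Values near 0 differed between libraries in general, with 364 to 437 genes at 0 in the control and 0 to 362 in the MA libraries. The share of genes under the filter whose groups did not overlap was not computed. Ptpn22 and Alox12 also fell under the filter.

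**Figure D4:**
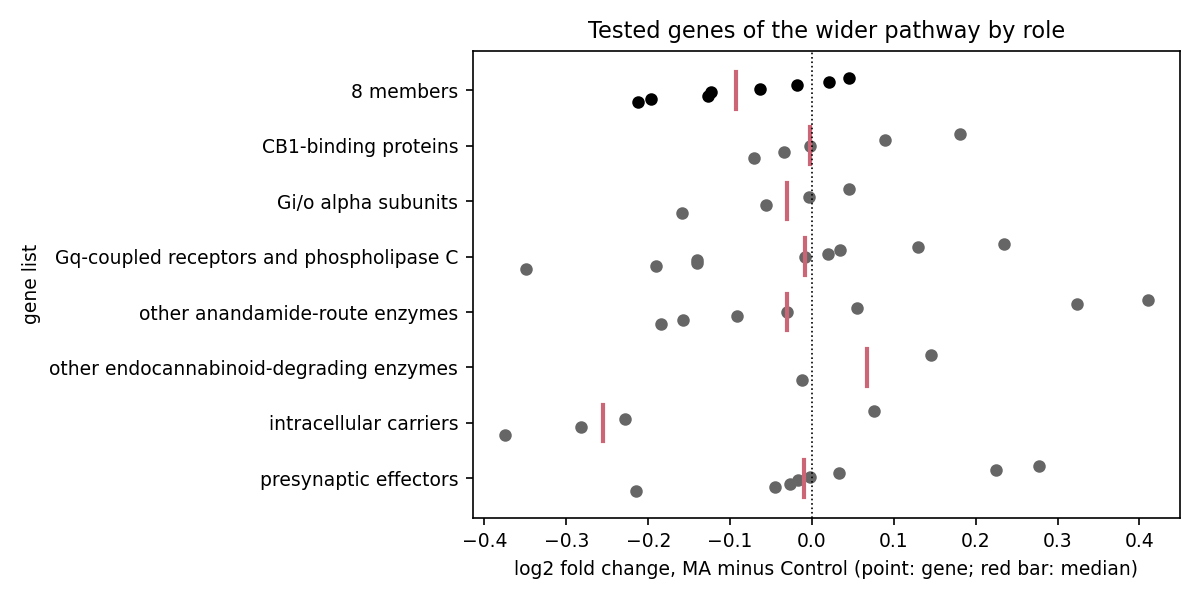
Log2 fold changes of MA against Control for the 8 genes (top row, black) and the 39 tested genes of the wider pathway grouped by role (grey), with the median of each row as a red bar. The carriers have the lowest median, -0.26, and 3 of their 4 genes lie below 0.

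Other tissue markers moved with the groups beside these genes. All 8 choroid plexus markers were higher in each MA library, with a summed level between 65.9 and 421 RPKM in the control and between 1779 and 5087 RPKM in the MA libraries. None of them was at 0 in any library. The 5 red blood cell genes summed to between 1599 and 2024 RPKM in the control and between 3319 and 4378 RPKM in the MA libraries. All 5 were also wholly higher in MA, where 7.32% of all tested genes were. The adjusted threshold was passed by 4 of the 8 choroid plexus and 3 of the 5 red blood cell genes (limma), beside 0.263% of all tested genes. None of the other listed markers passed it. For the CB1-rich cholecystokinin interneurons, the list without Cnr1 itself held Cck, Slc17a8, Htr3a and Vip. Slc17a8, the vesicular glutamate transporter gene of these cells, was wholly lower in MA with a log2 fold change of -0.31 (SE 0.11, adjusted p = 0.388, limma). Its level was low, at 1.15 in the control libraries (log2 scale), and other offsets were not tried for it. Cck was at -0.25 (SE 0.12, adjusted p = 0.521, limma), and Htr3a and Vip were at 0.12 and 0.11, all 3 with overlapping groups. Of the 8 glutamatergic markers, 6 had a log2 fold change below 0, as had 7025 of the 13321 tested genes, and the median of the 8 was -0.14. Neurod6 and Wfs1 were wholly lower in MA, as were 10.2% of all tested genes. They were at -0.43 (SE 0.12, adjusted p = 0.290, limma) and -0.30 (SE 0.11, adjusted p = 0.413, limma). The summed level of the list overlapped, between 1383 and 1496 RPKM in Control and between 1207 and 1720 RPKM in MA. The 2 glutamatergic markers above 0, Slc17a7 and Camk2a, were at 0.064 and 0.059 with overlapping groups. Dagla, Abhd6 and Cnr1, which neurons express, were at -0.21, -0.20 and 0.02. The 4 general GABAergic markers and the 7 microglial markers had median log2 fold changes of -0.016 and 0.066. The medians were -0.053 for 7 oligodendrocyte, 0.14 for 5 endothelial and 0.58 for 6 thalamic markers. Of the astrocyte, microglial and endothelial markers, Aqp4 and Tmem119 were wholly lower and Cldn5 wholly higher in MA. Their log2 fold changes were -0.36, -0.13 and 0.30 (limma adjusted p = 0.458, 0.679 and 0.241). The part of these tissue and cell markers in the values of the 8 genes was not tested.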

How the data were processed

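RNA-seq of the hippocampus was made by the authors from 3 control and 3 MA mice. Per the paper's methods, Hisat2 aligned the read pairs, which were counted with featureCounts and converted to FPKM by gene length, whereas the submitters' processing notes list Bowtie 0.12.2, mm8 and mm9 without a role. The values the authors deposited lie on a log2 scale and were used as log2 values of RPKM plus 1, the offset being inferred from the lowest value of 0. The log transform and the scaling between libraries are not described in the sources used here. Depth is unknown, and with 3 libraries per group the precision is limited by their number. Each of the 6 columns carries the name of 1 sample.

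Rows that reached a back-transformed value of 0.5 in 3 or more libraries were tested with limma 3.58.1 in R 4.3.3 (lmFit, eBayes with a trend on the mean), MA against control, without covariates, with Benjamini-Hochberg adjustment over all 13321 tested genes. Intervals are 95% intervals of that fit. The labels call each sample a mouse and give no batch. For single genes, an exact permutation test (two-sided) was added. The fit was tested on 10 simulated tables with 200 changed genes each. The simulated shifts were larger than any change of the 8 genes, and the noise was independent between genes. The simulation therefore does not show how well changes of their size would be found. Locations, exonic lengths and overlaps come from GENCODE M21 on GRCm38 and serve for location only. Named genes were all 8 genes, genes of the wider list with an unadjusted p under 0.05 or separate groups or under the filter, marker genes, and the 3 genes most and least like Cnr1. Grm5 and Ptgs2 were added after their values were seen. The 8 genes, the lists and the tests were chosen with earlier results of these data known. Alternatives were no filter, a minimum mean of 5, pseudocounts of 0.1 and 0.01, median centring, quantile normalization, no trend, sample quality weights, a replicate block, each library left out in turn and, added after the data were seen, a lowess correction for exonic length with a span of 0.3.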

Additional observations from a re-analysis of the deposited data

How the results depend on the processing

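None of the 8 endocannabinoid genes passed the adjusted threshold in any of the 127 gene-by-alternative fits, of which 5 changed sign. These were Cnr1 without MA replicate 1 (the values without each library in turn ran from -0.11 to 0.19), Cnr1 without MA replicate 2 (-0.020), Daglb without MA replicate 1 (range -0.024 to 0.11), and Faah without Control replicate 1 (0.056) or MA replicate 1 (range -0.15 to 0.14). All 5 arose with a library left out. With no filter, a minimum mean of 5, no trend or the replicate block, the fold change itself stays the same, so its sign could not change. The cause of the changes in sign was not tested. The count of genes wholly lower in MA, 3, ran from 2 to 4 over the alternatives. Abhd6 overlapped after the length correction, and Napepld joined without Control replicate 2 or MA replicate 2. These were its lowest control and its highest MA library, through which its groups overlapped. Leaving out a library can only keep or raise this count, and the share of all tested genes under each alternative was not computed.

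Over all genes, 35 passed the adjusted threshold. There were 3 with no filter, 20 with a minimum mean of 5, 586 with sample quality weights, 15 with the replicate block and from 0 to 246 with each library left out, the highest being without MA replicate 3 and the 0 without Control replicate 2, Control replicate 3 or MA replicate 2. Same-numbered libraries did not deviate together (r = -0.197, -0.242 and -0.337 across genes), and the replicate block, as an alternative that uses shared numbers only, called 0 of the 8. Of the 39 wider-pathway genes, 0 passed, 2 did with sample quality weights (Fabp3 and Fabp5), and from 0 to 1 with each library left out (Fabp3 without MA replicate 3). The median of that list moved from -0.012 to 0.053 with the weights and lay between -0.066 and 0.053 with each library left out. Unknown depth limits what can be said of genes near 0, such as Cnr2 and Trpv1.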
